A study of Mus musculus with 8 samples.

Results

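The genes described here are 10 members of the ADAM and ADAMTS families, found by Entrez Gene number among the 24454 genes listed for each library. They comprise 6 membrane-anchored proteases (Adam8, Adam9, Adam10, Adam12, Adam17 and Adam19), 3 secreted proteases (Adamts1, Adamts4 and Adamts5) and the ADAMTS-like gene Adamtsl3. They were measured by total RNA sequencing in 4T1, a mouse mammary carcinoma cell line that forms metastases. All cells had been infected with a lentiviral short hairpin vector and selected with puromycin. The hairpin was directed against ERK5 in 3 libraries (shERK5), against MEK5 in 2 libraries (shMEK5), and was non-targeting in 3 libraries (shCTRL). The labels' protocol speaks of 3 replicates for each line, but the series holds only 2 shMEK5 libraries. MEK5 is the kinase that activates ERK5. Each target was met by 1 hairpin (titled shERK5-1 and shMEK5-2). An effect of losing the target therefore cannot be told apart from another effect of that hairpin. The labels do not say whether the lines were clones or pools. Nor do they name separate cultures behind the replicates; each p-value therefore reflects library-to-library spread, which may be technical.

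ADAM proteins are zinc metalloproteases that sit in the membrane and cut other membrane proteins close to the cell surface, a step called ectodomain shedding. Shedding frees growth factors and cytokines from their anchored precursors and starts the cleavage cascade of Notch receptors. ADAMTS proteins share the catalytic domain but are secreted, carry thrombospondin repeats and cut matrix proteoglycans such as versican and aggrecan. ADAMTS-like proteins keep the thrombospondin repeats and lack the protease domain. In breast tumours both families are studied for their part in growth factor release, invasion and matrix remodelling.

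The coding sequence shows directly the division between the proteases and the ADAMTS-like gene. The catalytic zinc ion is held by 3 histidines, and a glutamate beside the first of them takes part in the cleavage. The stretches below are the 33 coding bases around these residues, 5′ to 3′ on the coding strand, from the GENCODE M21 transcripts of GRCm38. Capitals mark the codons of the first histidine, the glutamate, the second histidine, the glycine or asparagine that follows it, and the last histidine.
Adam8: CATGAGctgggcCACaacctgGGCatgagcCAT
Adam9: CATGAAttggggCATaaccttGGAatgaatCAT
Adam10: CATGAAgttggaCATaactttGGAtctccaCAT
Adam12: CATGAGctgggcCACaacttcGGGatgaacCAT
Adam17: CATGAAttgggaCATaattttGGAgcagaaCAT
Adam19: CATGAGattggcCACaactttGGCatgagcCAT
Adamts1: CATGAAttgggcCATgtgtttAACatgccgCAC
Adamts4: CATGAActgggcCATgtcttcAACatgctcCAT
Adamts5: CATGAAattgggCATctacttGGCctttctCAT
The stretch was found in frame in at least 1 coding transcript of 9 of the 10 genes. It was in 1 of 2 coding transcripts of Adam10, 2 of 4 of Adam12 and 2 of 3 of Adam17. The other proteases had it in all of theirs. None of the 3 coding transcripts of Adamtsl3, the longest of which has 1706 codons, held it. Adamts1 and Adamts4 have an asparagine codon (AAC) at the position where the other 7 have a glycine codon. Among 21901 mouse protein-coding genes, 74 (0.338%) hold such a stretch in frame in their longest coding transcript, and 38 of the 53 annotated ADAM and ADAMTS genes do. In Adam17 the stretch spans codons 424 to 434 and lies within a single exon at chr12:21336732-21336764 on the minus strand.

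The shallowest library held 41397315 reads counted in genes and the deepest 53714288. Levels are given in CPM, a gene's reads for every 1000000 reads counted in that library, and a single read weighed 0.0186 to 0.0242 CPM. The RNA of each hairpin's target fell in its own line, and Mapk7 RNA also fell in shMEK5. Map2k5, which encodes MEK5, was between 36.1 and 37.1 CPM in shERK5 libraries, 14.1 and 14.4 CPM in shMEK5 libraries, and between 35.2 and 37.0 CPM in shCTRL libraries. Mapk7, which encodes ERK5, was between 6.33 and 6.66 CPM in shERK5 libraries, 18.7 and 20.4 CPM in shMEK5 libraries, and between 25.6 and 28.6 CPM in shCTRL libraries. The log2 difference from shCTRL was -1.29 (SE 0.06) for Map2k5 in shMEK5, and for Mapk7 -1.88 (SE 0.07) in shERK5 and -0.44 (SE 0.08) in shMEK5. The epithelial markers Krt8, Krt18, Krt19, Cdh1 and Epcam were at 11.6 CPM or more in every library, while Krt14 and Cldn7 stayed at or below 1.84 CPM. The 6 leukocyte markers summed to at most 0.0751 CPM in shERK5, 0.121 CPM in shMEK5 and 0.140 CPM in shCTRL libraries. The 4 endothelial markers summed to at most 0.362 CPM in any library. Of 7 fibroblast markers only Pdgfra exceeded 0.653 CPM, at 22.5 to 46.3 CPM, and Dcn and Lum had 0 reads. The 7 epithelial markers summed to 1352 to 1403 CPM in shERK5, 1200.1 to 1264 CPM in shMEK5 and 1631 to 1818 CPM in shCTRL, and the fibroblast markers to 22.9 to 28.2 CPM in shERK5, 34.4 to 35.9 CPM in shMEK5 and 31.6 to 47.4 CPM in shCTRL. Their part in the results was not tested. In such bulk libraries, fewer cells expressing a gene and less RNA per cell cannot be told apart.

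Of the 10 genes, 9 reached 1 CPM in all 8 libraries and were tested, and Adamts5 had no read in any library. In shERK5 against shCTRL, Adam8, Adam9, Adam19 and Adamts1 rose and Adam10 and Adamtsl3 fell. In shMEK5 against shCTRL, Adam8, Adam12 and Adamts1 rose and Adam10 and Adamtsl3 fell. The widest differences were a fall of Adamtsl3 in shERK5 to 7.34% of its mean CPM in shCTRL, a 4.15-fold higher mean CPM of Adam12 in shMEK5, and a 2.64-fold higher mean CPM of Adam8 in shERK5. Adam17 passed the test in no comparison.

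Against shCTRL, the number of members called in either direction was close to the share of genes called in the whole table. Tests were made with limma on log2(CPM + 1) over 11623 genes, and a gene was called at an adjusted p under 0.05; fold changes on this scale understate the change of genes with few reads. In shERK5 against shCTRL, 4 of the 9 tested members rose and 2 fell, where 32% and 31.3% of all tested genes did, 63.3% together. Of these 2 falls, that of Adamtsl3 was already known from earlier results of these data, so the count is only a description. In shMEK5 against shCTRL, 3 rose and 2 fell, where 23.1% and 25.6% of all tested genes did, 48.7% together. Between the knockdowns, 2 members were higher and 3 lower in shERK5 than in shMEK5, where 22% and 17.4% of all tested genes were, 39.4% together. The 5 calls among the 9 members are a larger share than that, but with so few genes the count is only a description. The comparisons with shCTRL share the same control libraries.

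**Figure D1:**
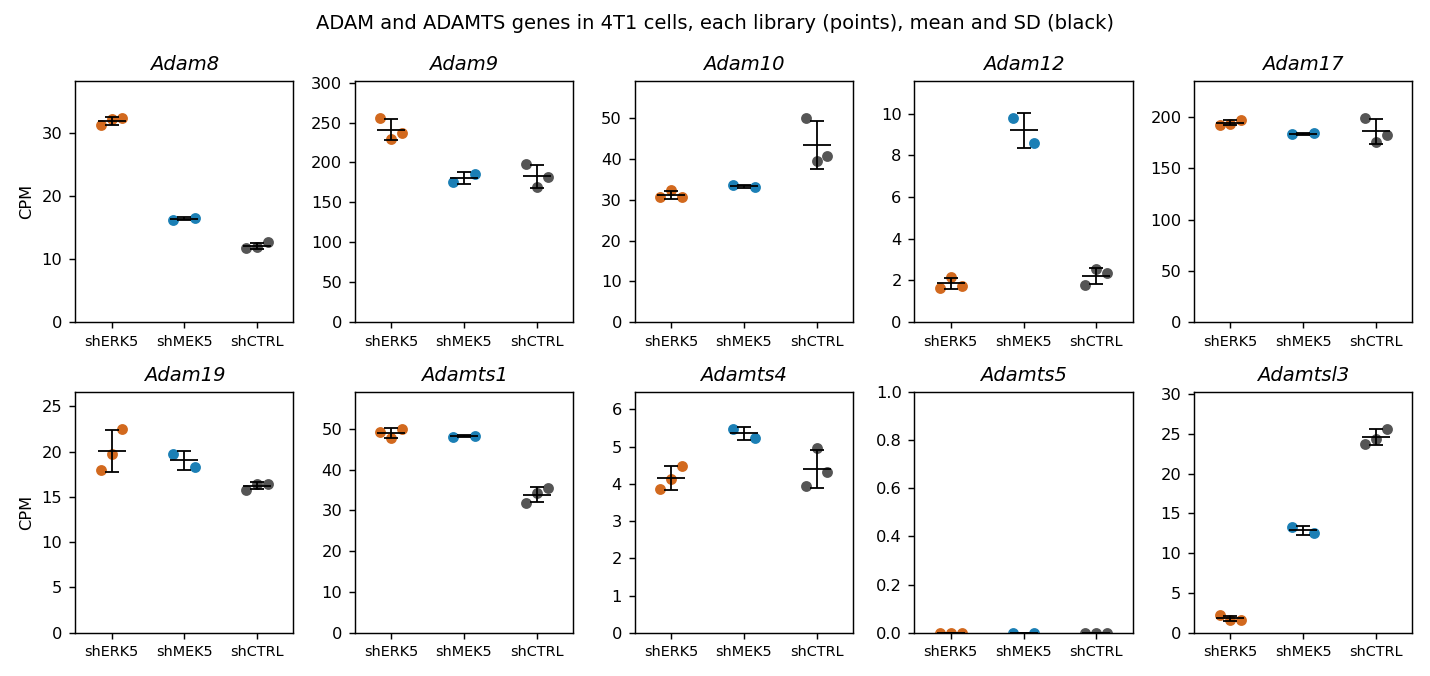
CPM of each of the 10 genes (vertical axes from 0, a separate scale for each gene) in every library of shERK5, shMEK5 and shCTRL; points are libraries, black marks the mean and SD. Adamtsl3 stands lowest in shERK5, between 1.60 and 2.18 CPM, Adam12 is high in both shMEK5 libraries, at 8.60 CPM or more, and Adamts5 lies at 0 throughout.

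Per kilobase of annotated exon, Adam9 and Adam17 were the highest of the 10 genes in every group, in that order. Mean levels of Adam9 were 58.6 CPM per kb in shERK5, 43.9 in shMEK5 and 44.5 in shCTRL. Those of Adam17 were 27.2 CPM per kb in shERK5, 25.7 in shMEK5 and 26.0 in shCTRL. Adam10, at 6.34 to 8.83 CPM per kb in the group means, and Adamts1, at 6.39 to 9.24 CPM per kb, came next, joined in shERK5 by Adam8 at 6.89 CPM per kb. Adam8 stood at 3.54 CPM per kb in shMEK5 and 2.61 in shCTRL. Adam19, Adamtsl3, Adamts4 and Adam12 had group means of 3.18 CPM per kb or less. These levels rest on the union of annotated exons, so a gene read mostly from a shorter transcript is set too low.

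Adam8 (chr7:139978932-139995207, GRCm38, minus strand) encodes a protease found in white blood cells and in some carcinomas, where it cuts adhesion molecules. It was at 31.2, 32.2 and 32.4 CPM in the shERK5 libraries, 16.3 and 16.6 CPM in the shMEK5 libraries, and 11.8, 11.8 and 12.7 CPM in the shCTRL libraries. The 3 groups did not overlap, and the levels ran shERK5 above shMEK5 above shCTRL. Against shCTRL, the log2 difference came to 1.33 (SE 0.06, limma adjusted p = 1.15e-07) in shERK5 and 0.41 (SE 0.06, limma adjusted p = 0.000493) in shMEK5. Between the knockdowns it was 0.92 (SE 0.06, limma adjusted p = 3.74e-06), so each step of that order passed the test. White blood cell markers stayed near 0 in the same libraries, as given above, and their part in the Adam8 levels was not tested.

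Adam9 encodes a broadly expressed sheddase whose known substrates include anchored growth factors. Its levels were 256, 230 and 237 CPM in shERK5, 175 and 186 CPM in shMEK5, and 198, 169 and 182 CPM in shCTRL. All shERK5 libraries lay above all others, while shMEK5 lay within the shCTRL range. The rise in shERK5 was 0.40 on the log2 scale (SE 0.06, limma adjusted p = 0.000355). In shMEK5 the difference from shCTRL was -0.02 (95% confidence interval -0.18 to 0.14). shERK5 exceeded shMEK5 by 0.41 (SE 0.07, limma adjusted p = 0.0012). On chromosome 8 Adam9 lies 692 bases from Adam32, which was at 0.113 to 0.559 CPM in shERK5, 0.193 and 0.252 CPM in shMEK5, and 0.187 to 0.306 CPM in shCTRL libraries and was not tested.

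Adam10 encodes the sheddase that makes the ligand-dependent cut in Notch receptors and also cuts E-cadherin. It was at 30.6, 32.4 and 30.5 CPM in shERK5 libraries, 33.6 and 33.0 CPM in shMEK5 libraries, and 50.1, 39.4 and 40.6 CPM in shCTRL libraries. Every knockdown library lay below every shCTRL library, and the highest shCTRL value came from replicate 1. The log2 difference from shCTRL came to -0.46 (SE 0.08, limma adjusted p = 0.000706) in shERK5 and -0.36 (SE 0.09, limma adjusted p = 0.00776) in shMEK5. Without shCTRL replicate 1 the differences were -0.35 in shERK5 (limma adjusted p = 0.000605) and -0.26 in shMEK5 (limma adjusted p = 0.00807). The fall in shMEK5 missed the threshold without shMEK5 replicate 2, at -0.35 (limma adjusted p = 0.0509; range over all alternatives 0.00184 to 0.0509). shERK5 and shMEK5 differed by -0.09 (95% confidence interval -0.30 to 0.11), which did not pass the test.

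Adam12 (chr7:133883199-134225097, minus strand) encodes a protease that cuts insulin-like growth factor binding proteins and heparin-binding EGF-like growth factor. It was a scarce transcript, at 1.66, 2.18 and 1.75 CPM in shERK5, 9.81 and 8.60 CPM in shMEK5, and 1.77, 2.53 and 2.36 CPM in shCTRL. Both shMEK5 libraries lay far above the rest, and shERK5 overlapped with shCTRL. The shMEK5 libraries held 406 and 409 Adam12 reads, and the other 6 libraries between 78 and 116. The rise in shMEK5 was 1.67 on the log2(CPM + 1) scale (SE 0.13, limma adjusted p = 4.25e-06) and 2.08 by edgeR on the recovered reads. In shERK5 the difference from shCTRL was -0.17 (95% confidence interval -0.41 to 0.08, limma adjusted p = 0.219) and did not pass. Without shCTRL replicate 1 it reached -0.27 and passed narrowly (limma adjusted p = 0.0495; range over all alternatives 0.0495 to 0.520). shERK5 was lower than shMEK5 by a log2 difference of -1.84 (SE 0.13, limma adjusted p = 3.18e-06).

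Adam17 encodes TACE, the enzyme that releases tumour necrosis factor, TGF-alpha and amphiregulin from the cell surface. Its levels were 193, 193 and 197 CPM in shERK5, 183 and 184 CPM in shMEK5, and 199, 176 and 183 CPM in shCTRL. The knockdown libraries lay within the shCTRL range. The log2 difference from shCTRL came to 0.06 (95% confidence interval -0.05 to 0.18) in shERK5 and -0.02 (95% confidence interval -0.14 to 0.11) in shMEK5. A difference of more than about 0.18 on the log2 scale in either direction was thus outside the intervals of both comparisons. Without shCTRL replicate 1 the shERK5 difference was 0.11 and passed the threshold (limma adjusted p = 0.0462; range over all alternatives 0.0462 to 0.705). On the opposite strand, Iah1 covers 311 (4.35%) of the Adam17 exon bases.

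Adam19 encodes a sheddase known for cutting neuregulins. It was at 17.9, 19.8 and 22.5 CPM in shERK5, 19.8 and 18.3 CPM in shMEK5, and 15.8, 16.5 and 16.4 CPM in shCTRL. Neither knockdown overlapped with shCTRL. The rise in shERK5 was 0.29 (SE 0.08, limma adjusted p = 0.0101). In shMEK5 the difference was 0.22 (SE 0.09, limma adjusted p = 0.0708) and missed the threshold, whereas edgeR (0.25, adjusted p = 0.0484) and DESeq2 (0.25, adjusted p = 0.0464) on the recovered reads put it just past (range of adjusted p over all alternatives 0.0365 to 0.303). Without shMEK5 replicate 1 the difference was 0.16 (limma adjusted p = 0.303). Antisense annotations Gm16033 and Gm16034 cover 8.25% and 6.75% of the Adam19 exon bases, and the sources used here do not say whether the counting used strand.

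**Figure D2:**
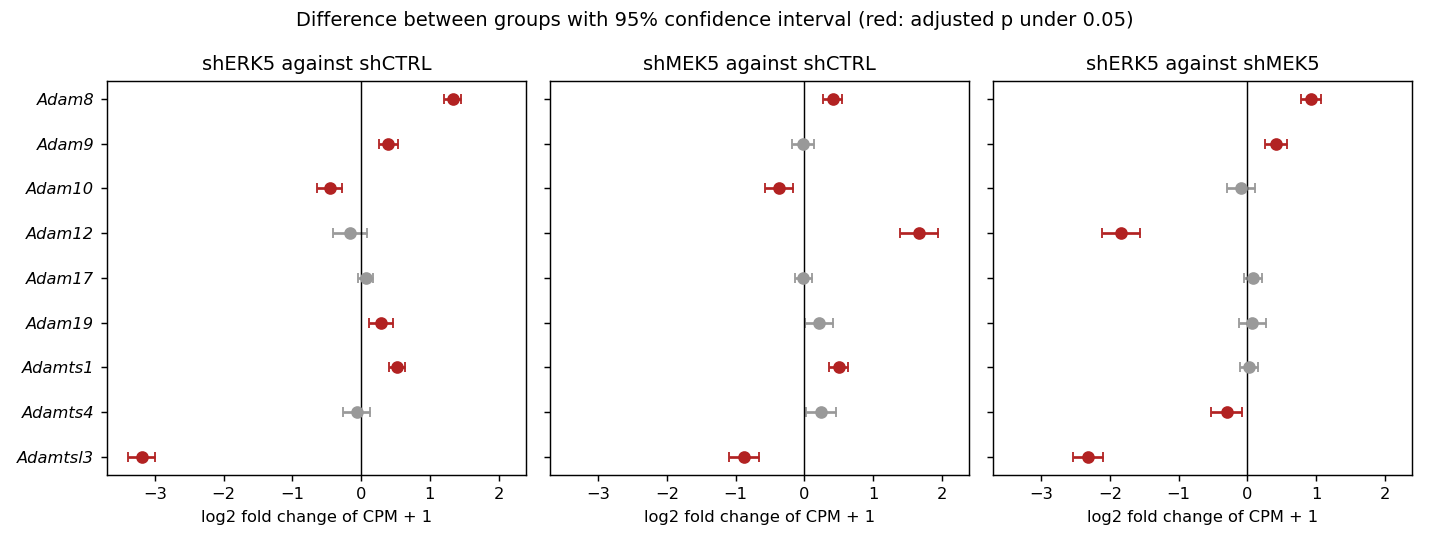
Difference between groups for the 9 tested genes (horizontal axes: log2 fold change of CPM + 1; points are estimates, bars 95% confidence intervals, red marks an adjusted p under 0.05) in shERK5 against shCTRL, shMEK5 against shCTRL, and shERK5 against shMEK5. Adamtsl3 lies far to the left in shERK5 at -3.19, Adam12 to the right in shMEK5 at 1.67, and Adam17 close to 0 in all 3 panels.

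Among the 6 membrane-anchored genes, the make-up of the transcript pool per kilobase of exon can be described for each library. Adam8 held between 6.42% and 6.99% in shERK5 libraries, 4.26% and 4.22% in shMEK5 libraries, and between 2.79% and 3.28% in shCTRL libraries. Adam10 held between 5.94% and 6.64% in shERK5, 8.31% and 7.94% in shMEK5, and between 9.92% and 11.2% in shCTRL. Adam8 held the larger share of this pair in every shERK5 library, and Adam10 held the larger share in every shMEK5 and shCTRL library. Adam17 held between 25.7% and 27.2% in shERK5, 31.1% and 30.5% in shMEK5, and between 30.6% and 31.2% in shCTRL. Its own CPM was not lower in shERK5, averaging 194 ± 2.51 over the 3 shERK5 libraries and 186 ± 12.0 over the 3 shCTRL libraries (± SD), and the shares of a library sum to 100%. Adam9 held between 56.2% and 59.4% in shERK5, 51.8% and 53.4% in shMEK5, and between 52.1% and 53.1% in shCTRL.

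**Figure D3:**
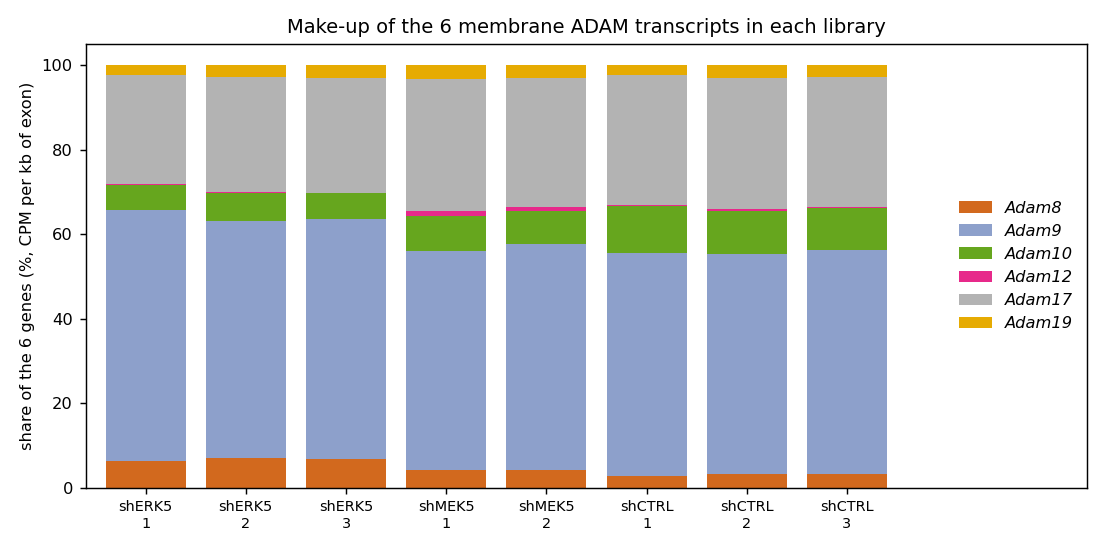
Share of each of the 6 membrane-anchored ADAM genes in their summed CPM per kilobase of exon (vertical axis, percent), 1 stacked bar per library of shERK5, shMEK5 and shCTRL. The Adam8 segment is widest in shERK5 (6.42% to 6.99%) and narrowest in shCTRL (2.79% to 3.28%), and the Adam10 segment runs the other way.

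Of the secreted proteases, Adamts1 rose in both knockdowns, Adamts4 passed the test against shCTRL in neither and Adamts5 was not detected. Adamts1 cuts versican and aggrecan and is also known as an inhibitor of blood vessel growth. It was at 49.3, 47.7 and 50.1 CPM in shERK5, 48.0 and 48.3 CPM in shMEK5, and 31.8, 34.2 and 35.6 CPM in shCTRL. Every knockdown library lay above every shCTRL library. The rise was 0.52 (SE 0.05, limma adjusted p = 1.75e-05) in shERK5 and 0.50 (SE 0.06, limma adjusted p = 9.87e-05) in shMEK5. The difference between the knockdowns was 0.02, with a 95% confidence interval of -0.11 to 0.16.

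Adamts4, an aggrecanase, was scarce. It had 3.85, 4.13 and 4.48 CPM in shERK5, 5.48 and 5.24 CPM in shMEK5, and 3.94, 4.96 and 4.31 CPM in shCTRL. shMEK5 lay above all other libraries. In neither knockdown did the difference from shCTRL pass the test: it was -0.07 (95% confidence interval -0.26 to 0.13) in shERK5 and 0.24 (95% confidence interval 0.02 to 0.46, limma adjusted p = 0.0708) in shMEK5. The shMEK5 difference passed without shCTRL replicate 2, at 0.31 (limma adjusted p = 0.0312; range over all alternatives 0.0312 to 0.236). shERK5 was lower than shMEK5 by a log2 difference of -0.30 (SE 0.10, limma adjusted p = 0.0335). That call was lost without shMEK5 replicate 1 (-0.28, limma adjusted p = 0.161), shMEK5 replicate 2 (-0.33, limma adjusted p = 0.0884), shERK5 replicate 1 (-0.26, limma adjusted p = 0.0786) or shERK5 replicate 2 (-0.30, limma adjusted p = 0.0689), and over all alternatives its adjusted p ranged from 0.0248 to 0.161.

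Adamts5, the other main aggrecanase of cartilage, had 0 reads in all 8 libraries. With no read seen, as many as 3 reads remain possible by counting error alone, which is 0.0559 to 0.0725 CPM depending on the library. Adamts5 lies 55.0 kb from Adamts1 on chromosome 16, with 1 other RefSeq gene, 4930556C24Rik, between them.

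Adamtsl3 (chr7:82335399-82614450, GRCm38, plus strand) encodes punctin-2, a glycoprotein of the extracellular matrix, and is the member with no zinc-binding codons. It was at 2.18, 1.60 and 1.64 CPM in shERK5, 13.3 and 12.5 CPM in shMEK5, and 23.7, 24.4 and 25.7 CPM in shCTRL. The groups did not overlap, and the levels ran shCTRL above shMEK5 above shERK5. In reads, the shERK5 libraries held 117, 85 and 73 and the shMEK5 libraries 551 and 595, against 1235, 1042 and 1173 in the shCTRL libraries. The mean in shMEK5 was 52.5% of that in shCTRL. On the log2(CPM + 1) scale the fall in shERK5 was -3.19 (SE 0.09, limma adjusted p = 9.80e-09) and in shMEK5 -0.88 (SE 0.10, limma adjusted p = 5.60e-05). edgeR on the recovered reads put the log2 fold change in shERK5 at -3.76. shERK5 was lower than shMEK5 by -2.32 (SE 0.10, limma adjusted p = 1.60e-07), so both steps of the order passed. Adamtsl3 was named in earlier results of these data for its fall in shERK5, so that fall is repeated here as a description.

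The genes whose pattern over the 8 libraries came closest to the 3 members with the widest spread of group means were found by the root mean square difference of log2(CPM + 1), with each gene's shCTRL mean subtracted. The search covered tested genes with an established symbol and left out the members and provisionally named genes. For Adam8 the nearest were Rab32, Hsd17b7 and Txnrd2, with differences of 0.09, 0.10 and 0.10. Rab32, the nearest, averaged 6.36 ± 0.235 CPM in shERK5, 3.34 ± 0.517 CPM in shMEK5 and 2.05 ± 0.129 CPM in shCTRL (± SD). Hsd17b7, an enzyme gene of cholesterol synthesis, averaged 25.4 ± 1.08 CPM over the 3 shERK5 libraries, 15.4 ± 0.0397 CPM over the 2 shMEK5 libraries and 10.4 ± 0.221 CPM over the 3 shCTRL libraries (± SD). For Adam12 they were Mx2, Inhba and Rasgef1b, with differences of 0.13, 0.18 and 0.19. Mx2, an interferon-induced GTPase gene, averaged 1.83 ± 0.225 CPM over the 3 shERK5 libraries, 9.28 ± 0.0632 CPM over the 2 shMEK5 libraries and 1.99 ± 0.0634 CPM over the 3 shCTRL libraries (± SD). No gene in the search came as close to Adamtsl3: the nearest were Cp, Nusap1 and H3c2, with differences of 0.52, 0.60 and 0.62. H3c2 is one of many near-identical histone genes, so its value is uncertain.

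Few other ADAM genes met the filter of at least 1 CPM in at least 2 libraries. Of 29 further Adam genes in the files, 14 had no read in any library and 3 were tested. Adam15, a widely expressed membrane-anchored relative, was at 89.2, 84.1 and 93.5 CPM in shERK5, 71.4 and 67.4 CPM in shMEK5, and 75.5, 73.7 and 74.3 CPM in shCTRL. It rose in shERK5 by 0.25 (SE 0.05, limma adjusted p = 0.00157), and in shMEK5 its difference was -0.10 (SE 0.06, limma adjusted p = 0.165). Adam33 rose in shERK5 by 0.29 (SE 0.12, limma adjusted p = 0.0489) although its libraries overlapped with shCTRL, and Adam1a fell in shMEK5 by 0.36 (SE 0.10, limma adjusted p = 0.0109) on the log2 scale.

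Of 22 further ADAMTS and ADAMTS-like genes, 9 were tested. In shERK5, where 32% of all tested genes rose and 31.3% fell, 2 of the 9 rose and 2 fell, and the median log2 difference was 0.04 against 0.00 for all tested genes. Adamtsl4 met the filter only with its shMEK5 libraries, at 1.52 and 1.58 CPM. Outside shMEK5 it reached 1 CPM only in shERK5 replicate 3, at 1.15 CPM. It rose in shMEK5 (0.51, SE 0.13), a rise that the filter favoured, so no count or median over the 9 is given for shMEK5. Adamts8, a secreted protease gene known as an inhibitor of blood vessel growth, was at 5.10, 4.75 and 4.63 CPM in shERK5, 17.4 and 18.6 CPM in shMEK5, and 5.74, 7.44 and 7.40 CPM in shCTRL. It rose in shMEK5 by 1.28 (SE 0.11, limma adjusted p = 7.97e-06) and fell in shERK5 by 0.42 (SE 0.09, limma adjusted p = 0.00274) on the log2 scale. Like Adam12, it was highest in shMEK5. Adamts14, which trims procollagen, rose in shERK5 (0.28, SE 0.06, limma adjusted p = 0.00141). Adamts7 rose in shERK5 (0.32, SE 0.08) and in shMEK5 (0.40, SE 0.09), and Papln, the papilin gene, fell in shMEK5 (-0.57, SE 0.09).

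**Figure D4:**
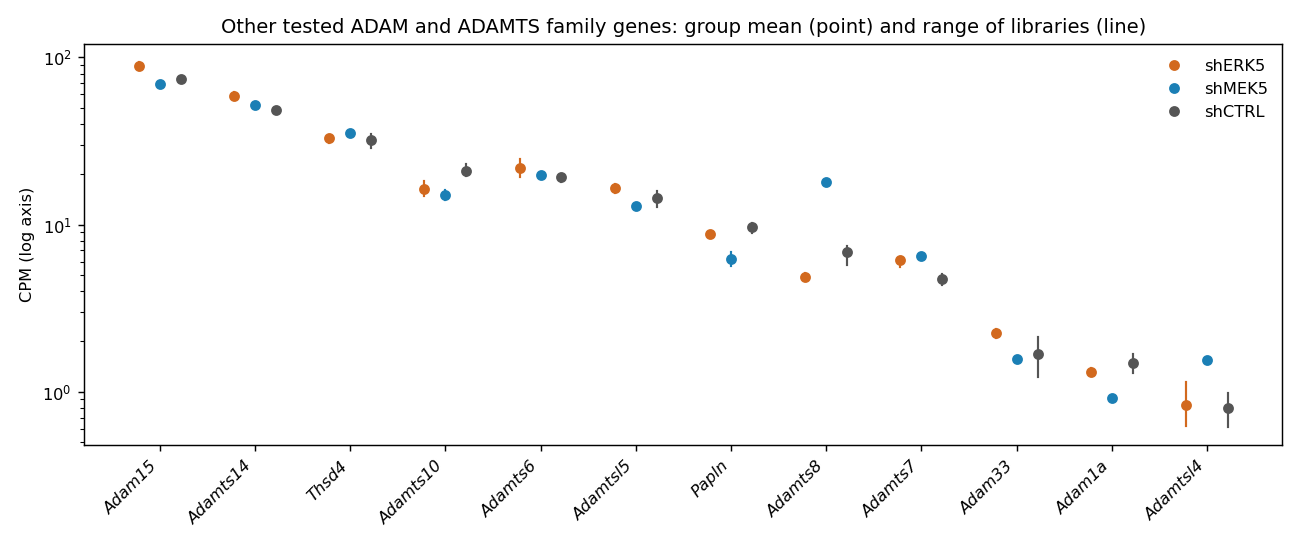
CPM (log axis) of the 12 tested genes of the ADAM and ADAMTS families outside the 10 members, with points for the means of shERK5, shMEK5 and shCTRL and lines for the range of libraries. Adamts8 stands apart in shMEK5, where both libraries were at 17.4 CPM or more.

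Sheddase activity depends on partners that mature, escort or inhibit the enzymes. Of 18 such genes, 13 were tested. Against the same shares of all tested genes (32% up and 31.3% down), 3 of the 13 rose and 5 fell in shERK5, and the median log2 difference was -0.03 against 0.00 for all tested genes. In shMEK5 (23.1% up and 25.6% down over all tested genes), 5 of the 13 rose and 3 fell, with a median of -0.08 against -0.02. Frmd8 encodes a protein that stabilises the complex of ADAM17 with its carrier iRhom. It was at 25.2, 24.7 and 25.6 CPM in shERK5, 26.3 and 23.6 CPM in shMEK5, and 37.7, 37.4 and 36.5 CPM in shCTRL, a fall of 0.55 (SE 0.06, limma adjusted p = 1.69e-05) and 0.56 (SE 0.06, limma adjusted p = 6.04e-05) on the log2 scale. The tetraspanins that escort ADAM10 moved in both directions. Tspan33 rose in shERK5 (0.70, SE 0.11) and shMEK5 (0.97, SE 0.12), where the mean was 2.24 CPM in shERK5, 2.92 CPM in shMEK5 and 1.01 CPM in shCTRL. Tspan14 rose in shERK5 (0.30, SE 0.06), with a difference of -0.08 (SE 0.07) in shMEK5. Tspan15 fell in shERK5 (-0.31, SE 0.08) and shMEK5 (-0.27, SE 0.09), as did Tspan17 (-0.47, SE 0.11, and -0.33, SE 0.12). Tspan5 rose in shMEK5 (0.59, SE 0.15), and its difference in shERK5 was 0.20 (SE 0.13). Tspan5, Tspan15 and Tspan17 were added after their values were seen. Timp2, an inhibitor of metalloproteases, fell in shERK5 by 0.23 (SE 0.05, limma adjusted p = 0.00114), and its difference in shMEK5 was -0.08 (SE 0.05, limma adjusted p = 0.193).

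Genes of known sheddase substrates were looked at as a list of 34, of which 30 were tested. In shERK5, 10 of the 30 rose and 12 fell, near the 32% and 31.3% of all tested genes, and the median log2 difference was -0.05 against 0.00. In shMEK5, 13 of the 30 rose and 8 fell, against 23.1% and 25.6% of all tested genes, with a median of 0.09 against -0.02. Areg, which encodes the ADAM17 substrate amphiregulin, was at 46.1, 43.2 and 41.0 CPM in shERK5, 71.0 and 75.6 CPM in shMEK5, and 109, 113 and 108 CPM in shCTRL. It fell by 1.32 (SE 0.05, limma adjusted p = 9.60e-08) in shERK5 and by 0.58 (SE 0.06, limma adjusted p = 3.63e-05) in shMEK5 on the log2 scale. Jag1, a Notch ligand gene, was at 39.6, 41.1 and 40.1 CPM in shERK5, 104 and 100.5 CPM in shMEK5, and 33.0, 31.5 and 29.99 CPM in shCTRL. Its rise was 0.34 (SE 0.05, limma adjusted p = 0.00022) in shERK5 and 1.67 (SE 0.06, limma adjusted p = 4.43e-08) in shMEK5. Cdh1, which encodes the ADAM10 substrate E-cadherin, and Icam1 rose in both knockdowns, Cdh1 more in shERK5 (1.56, SE 0.06) than in shMEK5 (0.56, SE 0.07) and Icam1 less (1.13, SE 0.05, and 1.48, SE 0.06). The differences between the knockdowns were 1.00 for Cdh1 (limma adjusted p = 2.38e-06) and -0.35 for Icam1 (limma adjusted p = 0.000757).

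**Figure D5:**
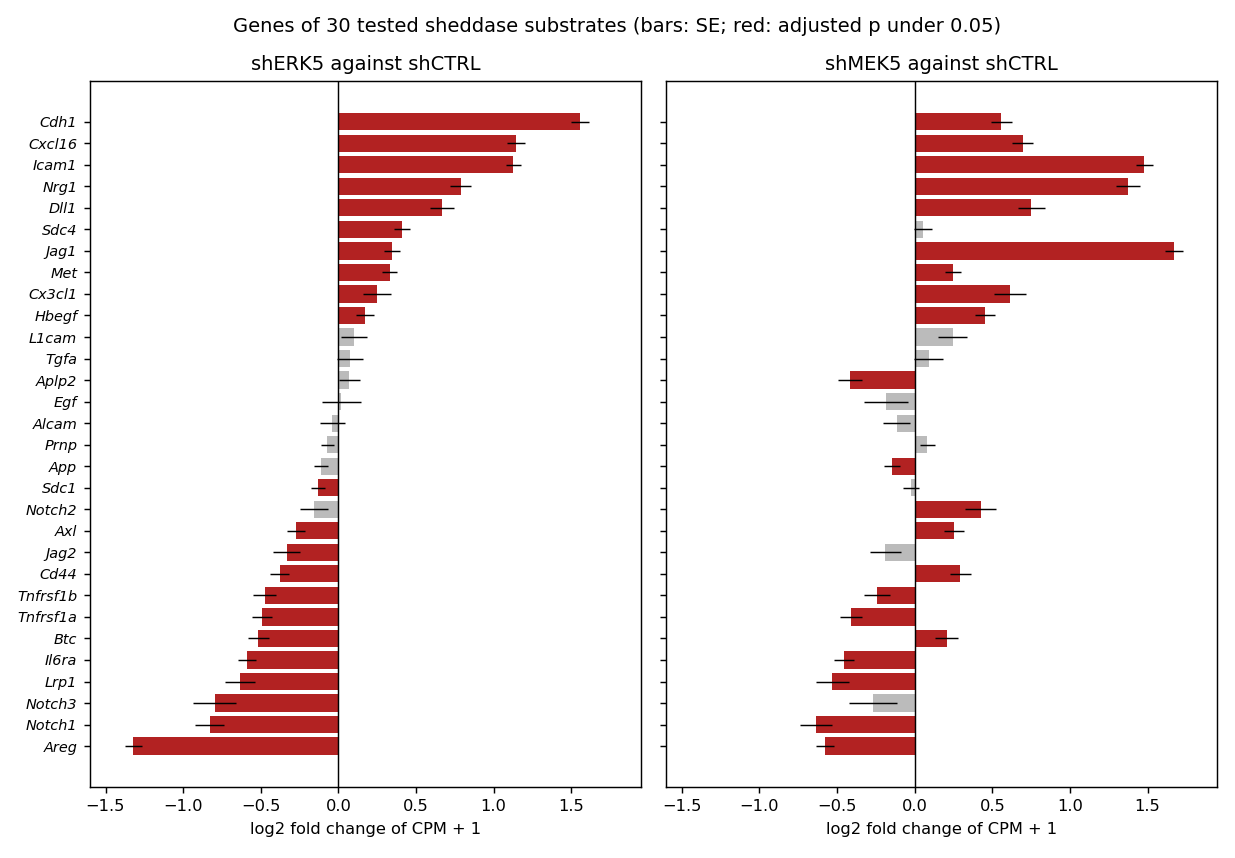
Log2 fold change of CPM + 1 (horizontal axes; whiskers are SE, red marks an adjusted p under 0.05) for the 30 tested genes of sheddase substrates in shERK5 against shCTRL and shMEK5 against shCTRL, in the same gene order. Cdh1 is at the top and Areg at the bottom in shERK5 (1.56 and -1.32), and Jag1 reaches 1.67 in shMEK5.

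After shedding, gamma-secretase cuts the membrane stub that is left, as in Notch signalling. Psenen, which encodes a small subunit of that complex, rose in shERK5 (0.48, SE 0.08, limma adjusted p = 0.000277) and in shMEK5 (0.27, SE 0.08, limma adjusted p = 0.0212). Psen2 rose in shERK5 by 0.25 (SE 0.06, limma adjusted p = 0.0032), and its difference in shMEK5 was -0.16 (SE 0.06, limma adjusted p = 0.0559). Aph1a rose in shERK5 by 0.18 (SE 0.05, limma adjusted p = 0.00799), and its difference in shMEK5 was -0.13 (SE 0.05, limma adjusted p = 0.0562).

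ADAMTS substrates and partners were mostly below the filter, with 4 of 15 genes tested. One of them, Ncan, met the filter through shERK5 libraries alone, so no count or median over the tested genes is given. Thbs1, thrombospondin-1, rose in shERK5 by 1.11 (SE 0.06, limma adjusted p = 2.07e-07) and in shMEK5 by 1.22 (SE 0.06, limma adjusted p = 4.40e-07). It averaged 172 ± 9.20 CPM over the 3 shERK5 libraries, 185 ± 5.73 CPM over the 2 shMEK5 libraries and 78.9 ± 4.29 CPM over the 3 shCTRL libraries (± SD). Ltbp1, a microfibril-associated binder of latent TGF-beta, rose in both (0.34, SE 0.06, and 0.27, SE 0.06). Nid1, a basement membrane gene, fell in shMEK5 (-0.49, SE 0.12), and its difference in shERK5 was 0.08 (SE 0.10). Ncan rose in both (0.72, SE 0.12, and 0.36, SE 0.13), and the filter favoured its rise in shERK5.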

How the data were processed

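The deposited values are CPM, made by the authors from reads mapped with STAR to mm10, which is GRCm38, per the submitters' processing notes. The sources used here do not give the STAR version, the annotation, the counting program or its strand setting. Libraries were prepared from ribosome-depleted total RNA with a stranded kit, per the labels' protocols. Each library summed to 1000000, and all values (100%) equalled a whole number of reads to within 0.01 read, so reads could be recovered. Symbols and gene coordinates came from RefSeq (GRCm38.p6), which named 24374 of 24454 genes, and exon lengths and coding sequence from GENCODE M21.

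Genes with at least 1 CPM in at least 2 libraries (11623) were tested with limma 3.58.1 in R 4.3.3 on log2(CPM + 1), with trend and robust moderation, all 8 libraries, a mean per group, no covariate and Benjamini-Hochberg adjustment over all tested genes. Count tests on the recovered reads used edgeR 4.0.16, which called 7350 genes in shERK5 and 5627 in shMEK5 against shCTRL and 4452 between the knockdowns, and DESeq2 1.42.0. Other alternatives were RLE and TMM scaling, a pseudocount of 0.1, other filters, fits of only the groups compared, a replicate block, and leaving out each library. The code for the limma fit was checked on simulated counts of known fold change. No pair of replicates agreed within sampling noise (chi-square per degree of freedom 8.22 or more).

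The members, related lists and tests were chosen with earlier results of these data known. All members are described. From each related list the text names up to 4 genes that passed in a knockdown against shCTRL, with the smallest adjusted p, and the 3 genes nearest in pattern to each of the 3 members with the widest spread. A gene that this rule would name, and the counts of its list, are not reported here. Adam32 was added as a neighbour after its values were seen.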

Additional observations from a re-analysis of the deposited data

How the results depend on the processing

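The 9 tested members in 3 comparisons gave 459 values under 17 alternative fits; 431 kept direction and call, 5 lost and 11 gained a call, and 12 changed sign, none of which passed the test before or after. With RLE scaling, TMM scaling and edgeR, the log2 difference in shMEK5 turned to 0.00139, 0.00454 and 0.00247 for Adam9 and to 0.00149, 0.00465 and 0.00288 for Adam17. Leaving out 1 library gave -0.0724 to 0.0403 for Adam9 in shMEK5, -0.0564 to 0.0336 for Adam17 in shMEK5, -0.128 to 0.00713 for Adamts4 in shERK5, and -0.0118 to 0.145 for Adam19 between the knockdowns. The number of members called ranged over 6 to 8 in shERK5, 4 to 6 in shMEK5 and 4 to 5 between the knockdowns. Over all genes, leaving out 1 library gave 2912 to 4827 calls between the knockdowns, the fewest without shMEK5 replicate 1, against 4581 with all libraries. Libraries with the same replicate number did not deviate together throughout (correlations of -0.19 to 0.52). Between the knockdowns they did, at 0.46 for number 1 and 0.52 for number 2, against -0.52 and -0.46 for unlike numbers. Deviations of the 2 shMEK5 libraries from their mean mirror each other, so these values are not separate evidence. Same-numbered shCTRL and knockdown libraries reached at most 0.17, and the numbers were not taken as pairs. With the replicate number as a block, Adam19 in shMEK5 passed (0.26, limma adjusted p = 0.0429) and the Adamts1 difference between the knockdowns was -0.00172; no other member's call changed, and the block gave 7462 calls in shERK5, 5763 in shMEK5 and 4435 between the knockdowns. The causes of these shifts were not tested. Depth bears most on Adamts5, at 0 reads, and on family genes below the filter.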
